A study of Mus musculus with 41 samples.

Results

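The cortex and the midbrain of the same 6 mice were compared by sequencing of polyadenylated RNA, to describe how these regions differ in mice that keep a working Yy1 gene. The 12 libraries, 6 labelled cortex and 6 labelled midbrain, are of 41 in the series, and they were chosen by genotype and region label and paired by animal number. The mice were C57BL/6J, aged 12 weeks and Yy1-floxed, which means that both regions carry copies of Yy1 flanked by sites at which Cre can cut it out, and no Cre is named for this group. No mice without floxed alleles are among the samples, so an effect of the alleles themselves cannot be told apart from the strain's own pattern. For a repeat in other animals, 5 pairs of cortex and midbrain from astrocytic Yy1-cKO mice were used, of the same strain and age, in which a Gfap-driven Cre removes Yy1 from astrocytes. A floxed library with a title that points to cortex but a tissue entry of midbrain was left out, and floxed midbrain 7 then had no cortex partner. Values are normalised reads, and the reads behind a library were estimated at 23.0 to 49.8 M in cortex and 24.6 to 49.0 M in midbrain. The same number of a cortex and a midbrain library was taken to mark 1 animal. In all 12 libraries Ddx3y, a gene of the Y chromosome, stood at 851 to 1359, while Xist, the transcript that silences an X chromosome in females, stood at 2.63 to 18.9, although 4 of the 12 are labelled female.

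The vertebrate brain is laid out along its length by transcription factors that each mark a territory. Emx1 and Tbr1 mark the forebrain end, En1 and Pax7 the midbrain, and the Hox genes the hindbrain and spinal cord, where their order along the chromosome follows their order along the body. Neurons that make dopamine, serotonin and noradrenaline lie in small nuclei of the brainstem and send axons to the cortex, so their synthesis genes are transcribed far from where the transmitter is released. Excitatory neurons of the cortex load glutamate with the transporter VGLUT1, and those of the thalamus and brainstem mostly with VGLUT2. White matter, which is rich in oligodendrocytes, takes up more of the brainstem than of the cortical sheet.

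Of 15674 genes tested, 7739 (49.4%) differed between the regions at an adjusted p under 0.05. These were 2761 genes higher in midbrain (17.6%) and 4978 lower (31.8%). The counts of each gene list below are to be read beside these shares. Differences are given as midbrain minus cortex on the log2(value + 1) scale, where 1 stands for a fold of 2. At least that fold was reached by 447 of the higher genes (2.85%) and 280 of the lower (1.79%). A difference of at least 3 on the log2 scale was seen for 92 higher and 4 lower genes. In 2783 genes (17.8%) the 6 midbrain libraries did not overlap the 6 cortex libraries. The largest differences were mostly of genes near 0 in cortex. The median over all genes tested was -0.06. The balance of the 2 directions depended on scaling, since 35.7% of calls were higher as deposited, 59.9% with library totals made equal, 50.7% with median-ratio scaling and 44.2% with the median gene set to 0. Cortex 2 stood above the other cortex libraries for several thalamic genes and for Hcrt and Pmch, cortex 4 for Avp and Oxt, cortex 3 for Ttr, and midbrain 1 apart from its group for several brainstem genes, as given beside those genes. The 12 libraries came from whole pieces of tissue, in which fewer cells of a type and less RNA per cell cannot be told apart.

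**Figure D1:**
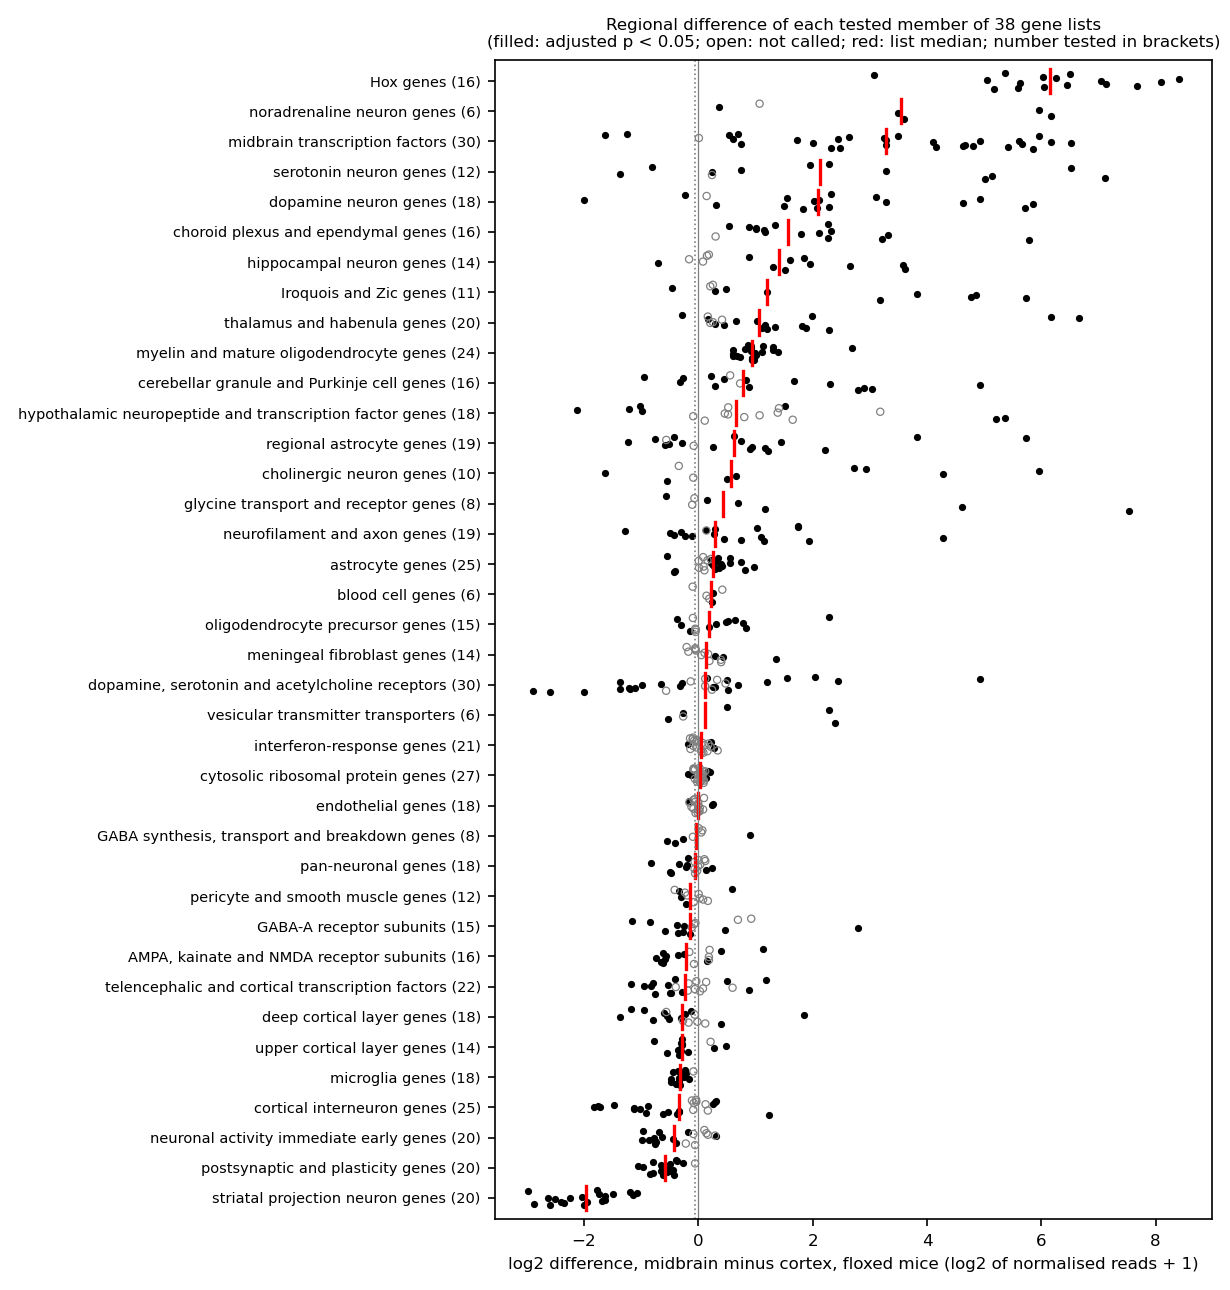
Log2 difference, midbrain minus cortex, of every tested member of 38 gene lists in floxed mice. Each point is a gene, filled where the adjusted p was under 0.05, and the red bar is the list median, from -1.97 for striatal projection neuron genes to 6.15 for Hox genes. The solid line marks 0 and the dotted line the median of all genes tested, -0.06.

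Some forebrain transcription factors were lower in midbrain by modest amounts, and others were not called. Tbr1, a transcription factor of deep-layer and early-born cortical neurons, ranged from 3078 to 4161 (median 3453) in cortex and from 1179 to 2245 (median 2034) in midbrain, with a difference of -0.95 (SE 0.09, limma adjusted p = 2.5e-05). Of 22 telencephalic and cortical transcription factors tested, 10 were lower, 3 were higher and 9 were not called, with a median of -0.23. Over all genes tested 31.8% were lower and 17.6% higher. The lowest of the list was Bcl11b, a factor of subcortically projecting and striatal neurons, at -1.17 (SE 0.05, limma adjusted p = 1.29e-09). Neurod6, a factor of pyramidal neurons, ranged from 824 to 1795 (median 1209.5) in cortex and from 1026 to 1549 (median 1265) in midbrain, and its difference of 0.08 did not pass the test (limma adjusted p = 0.7, 95% interval -0.29 to 0.45). Tshz2 (1.18 (SE 0.15)), Neurod1 (0.88 (SE 0.09)) and Bhlhe22 (0.51 (SE 0.05)) were the 3 higher members. Neurod1, for which the libraries overlapped, is also in the list of cerebellar genes.

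Markers of the cortical layers had small negative medians, and members went both ways. Of 14 upper-layer genes 11 were lower and 2 higher (median -0.29), and of 18 deep-layer genes 10 were lower and 2 higher (median -0.28). The shares over all genes tested were 31.8% lower and 17.6% higher. Plxnd1, a semaphorin receptor of upper layers, differed by -0.77 (SE 0.12, limma adjusted p = 0.000952), and Cux2, a homeodomain factor of upper layers, by -0.54 (SE 0.07, limma adjusted p = 6.69e-05). Rorb, the nuclear receptor that marks layer 4, had values of 772 to 1228 (median 913) in cortex and 743 to 872 (median 856) in midbrain. The libraries overlapped, and its difference of -0.18 (SE 0.07, limma adjusted p = 0.0446) was lost without animal 1 (limma adjusted p = 0.0751), 2 (0.148) or 3 (0.155), without the pairing (0.149), with equal totals (0.36) and with median-ratio scaling (0.188). In the deep-layer list Syt6, a synaptotagmin of layer 6, was lower by -1.37 (SE 0.06, limma adjusted p = 3.77e-09), while Nxph4, a neurexin ligand of layer 6b, was higher by 1.86 (SE 0.15, limma adjusted p = 1.31e-05).

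The vesicular glutamate transporter genes Slc17a7 and Slc17a6 differed in opposite directions and by unequal amounts. In the midbrain libraries the values of Slc17a7 still lay above those of Slc17a6. Slc17a7 (chromosome 7, 45163949 to 45176142, plus strand), which encodes VGLUT1, ranged from 34454 to 49779 (median 43976) in cortex and from 20837 to 34305 (median 31140.0) in midbrain, with no overlap and a difference of -0.53 (SE 0.06, limma adjusted p = 4.65e-06). The midbrain mean was 69.4% of the cortex mean. Slc17a6 (chromosome 7, 51622006 to 51671119, plus strand), which encodes VGLUT2, ranged from 353 to 999 (median 518) in cortex and from 2578 to 4023 (median 2794) in midbrain, with a difference of 2.38 (SE 0.28, limma adjusted p = 0.00128). Every midbrain library lay above every cortex library, and cortex 2 and 4 were the highest of the cortex group at 999 and 829. Without these 2 animals the difference was 2.76. Slc17a8, which encodes VGLUT3, differed by -0.27 and did not pass the test (limma adjusted p = 0.0521).

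The promoters of this pair of genes are shown because the genes differ in opposite directions between the regions. They are RefSeq windows on GRCm38.p6, from 250 bases before to 50 bases after the annotated start, and Slc17a6 has 2 of them. Capitals mark matches, on either strand, to the motifs TGATTNAT (HOX-PBX type), TGTTTAC (forkhead type), TAATTA (homeodomain type) or CAGATG (E-box).
Slc17a7, chr7:45163671-45163970, plus strand: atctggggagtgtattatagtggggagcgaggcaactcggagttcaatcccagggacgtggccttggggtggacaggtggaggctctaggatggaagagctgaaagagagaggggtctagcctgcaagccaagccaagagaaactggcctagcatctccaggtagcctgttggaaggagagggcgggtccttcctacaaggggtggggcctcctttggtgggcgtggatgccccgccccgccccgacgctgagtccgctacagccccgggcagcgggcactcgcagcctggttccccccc
Slc17a6, chr7:51621580-51621879, plus strand: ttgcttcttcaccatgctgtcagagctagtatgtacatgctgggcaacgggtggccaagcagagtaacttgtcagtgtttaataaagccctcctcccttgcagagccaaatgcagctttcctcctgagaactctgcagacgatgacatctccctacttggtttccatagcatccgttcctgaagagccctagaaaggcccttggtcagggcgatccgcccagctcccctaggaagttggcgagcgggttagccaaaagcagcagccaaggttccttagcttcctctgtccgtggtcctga
Slc17a6, chr7:51624387-51624686, plus strand: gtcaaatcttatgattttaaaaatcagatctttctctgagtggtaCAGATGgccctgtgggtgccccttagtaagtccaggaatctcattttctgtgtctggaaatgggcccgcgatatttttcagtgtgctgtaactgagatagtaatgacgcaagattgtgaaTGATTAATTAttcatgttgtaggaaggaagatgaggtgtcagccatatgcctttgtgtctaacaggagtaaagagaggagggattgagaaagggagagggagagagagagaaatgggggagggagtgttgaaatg
The Slc17a7 window has a GC content of 63.7% and no match. The first Slc17a6 window has 53.7% and no match. The second has 43% and 3 matches, CAGATG 205 bases before the start, TGATTNAT 85 bases before it and TAATTA 81 bases before it, the last 2 of which overlap. Of all 32851 promoter windows in the RefSeq table, 3.22% hold TGATTNAT, 3.65% TGTTTAC, 5.29% TAATTA and 17.2% CAGATG, and the median GC content is 52.7%. A match is a run of letters and no evidence of binding. Of the 15 genes with the largest differences upward, 9 had a window, with TGATTNAT in 1 and CAGATG in 1, and of the 15 largest downward 6 had a window, with CAGATG in 1.

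Genes of striatal projection neurons formed the most uniform group below the cortex level. All 20 tested members were lower in midbrain by at least a fold of 2, with a median of -1.97, beside 1.79% of all genes tested. Drd1 (chromosome 13, 54051183 to 54055705, minus strand), the D1 dopamine receptor of direct-pathway neurons, ranged from 1322 to 1845 (median 1791) in cortex and from 182 to 390.4 (median 284) in midbrain. The groups were far apart, with a difference of -2.59 (SE 0.12, limma adjusted p = 1.34e-07). Adora2a, the adenosine receptor of indirect-pathway neurons, ranged from 2846 to 4812 (median 3823) in cortex and from 247 to 778 (median 544) in midbrain, a difference of -2.88 (SE 0.24, limma adjusted p = 0.000233). Ppp1r1b, which encodes DARPP-32, the phosphatase inhibitor that integrates dopamine signals, ranged from 21969 to 31336 (median 24646) in cortex and from 3164 to 6277 (median 5083) in midbrain (-2.35 (SE 0.12, limma adjusted p = 2.8e-06)). Differences of the same size were found for Rgs9 (-2.50 (SE 0.11)), a regulator of G protein signalling, and for Drd2 (-1.999 (SE 0.09)), the D2 dopamine receptor. In the striatum these genes are expressed at far higher levels than in the cortical sheet. The cortex libraries hold a strong signal of these genes, and whether striatum was taken with the pieces was not tested.

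Other genes with the largest downward differences included Lhx8, a factor of cholinergic and ventral forebrain neurons. It ranged from 105 to 228 (median 145) in cortex and from 2.35 to 39.4 (median 15.3) in midbrain (-3.44 (SE 0.53, limma adjusted p = 0.0023)), and in cKO mice the difference was -1.02 and not called (adjusted p = 0.084). The test of whether the regional difference itself differs by genotype did not call Lhx8. Cd4, known as a T cell co-receptor, had values of 471 to 879.8 (median 555) in cortex and 29.9 to 106 (median 82.7) in midbrain (-3.10 (SE 0.27, limma adjusted p = 0.000123)). Sh3rf2, a RING finger protein with SH3 domains (-2.98 (SE 0.30)), was the lowest member of the striatal list above. It was among the 15 largest, as were Serpina9, a serine protease inhibitor (-3.24 (SE 0.17)), Ptprv, a receptor-type phosphatase (-2.86 (SE 0.15)), and Ido1, which degrades tryptophan (-2.75 (SE 0.21)). Also in that set were Gpr6 (-2.64 (SE 0.27)), an orphan receptor of striatal neurons, Abi3bp (-2.63 (SE 0.13)), a matrix protein, Prdm12 (-2.44 (SE 0.24)), a chromatin regulator, and Ptpn7 (-2.31 (SE 0.22)), a phosphatase, with the striatal genes Adora2a, Drd1, Rgs9 and Ppp1r1b named above.

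GABAergic genes were lower in midbrain in part. Gad1, which makes GABA, ranged from 9288 to 11998 (median 10784) in cortex and from 7425 to 9032 (median 7929) in midbrain (-0.40 (SE 0.05, limma adjusted p = 1.05e-05)), and the groups did not overlap. Of 25 cortical interneuron genes 14 were lower and 4 higher, with a median of -0.34, beside 31.8% lower and 17.6% higher of all genes tested. The homeodomain factors Dlx5 (-1.83 (SE 0.08)) and Dlx6 (-1.71 (SE 0.11)) and the zinc finger factor Sp8 (-1.76 (SE 0.21)), all active in interneurons and striatal precursors, led the lower members. Among the transmitters and calcium-binding proteins that class these neurons, Sst (somatostatin) differed by -0.38 (SE 0.05) and Vip (vasoactive intestinal peptide) by -0.62 (SE 0.10), while Pvalb (parvalbumin) went the other way. Pvalb ranged from 805 to 1673 (median 1136) in cortex and from 2334 to 3462 (median 2652) in midbrain, a difference of 1.24 (SE 0.08, limma adjusted p = 9.39e-07). Its level in cerebellum, where Purkinje cells also make it, had a median of 20294.

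**Figure D2:**
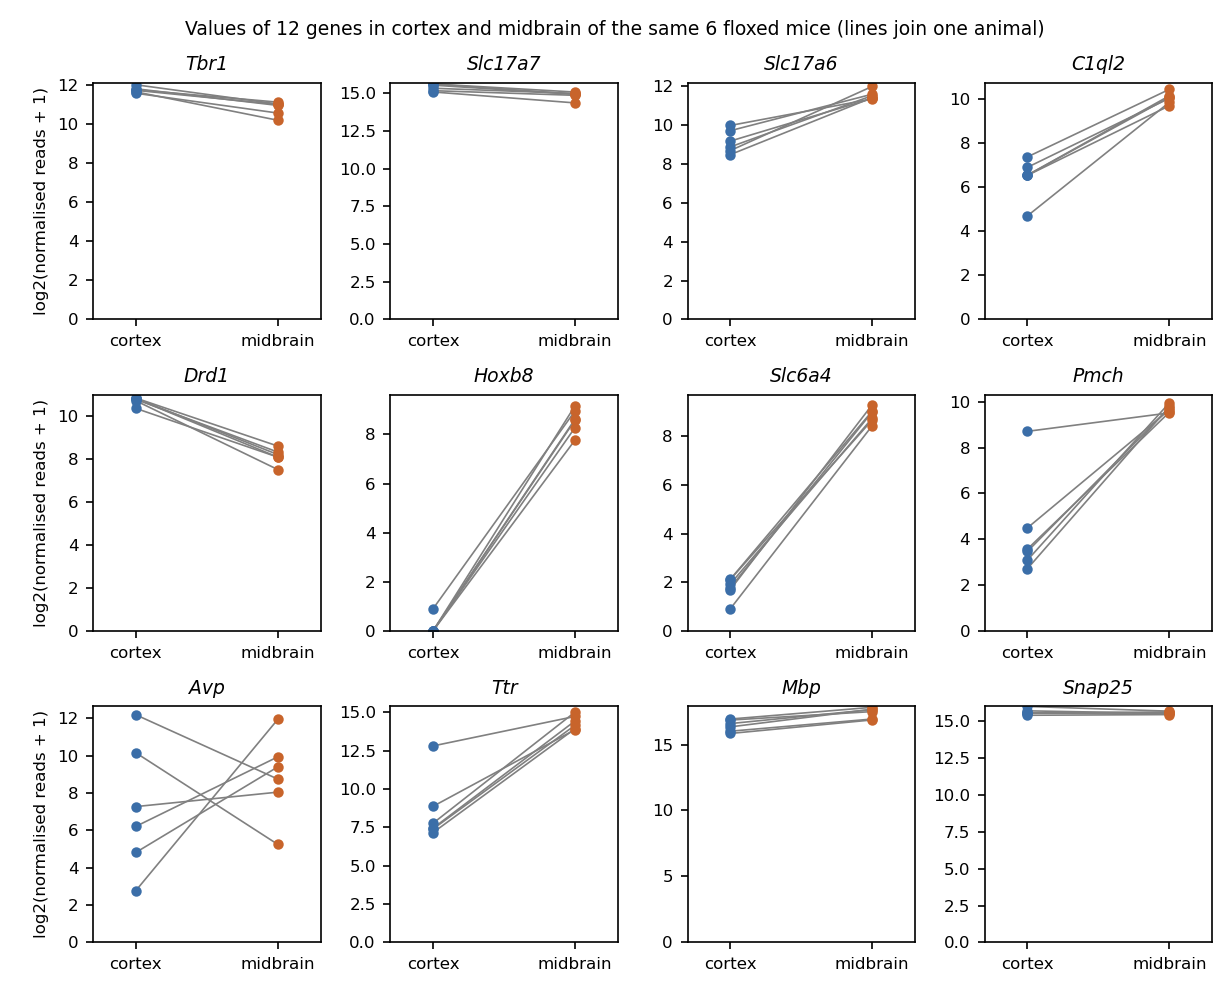
Values of 12 genes in the cortex and midbrain of the same 6 floxed mice, on a log2(normalised reads + 1) scale that starts at 0 in each panel. Lines join the libraries of 1 animal. All 6 lines of Slc17a6, C1ql2, Hoxb8, Slc6a4, Pmch, Ttr and Mbp rise, all 6 of Tbr1, Slc17a7 and Drd1 fall, and those of Avp cross.

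Hox genes gave the widest separation of the regions. Of 30 Hox genes, 16 passed the filter on low values, all 16 were called higher, and no midbrain library overlapped a cortex library for any of them. Because the filter needs a value of 10 in at least 6 libraries, those 16 passed through midbrain alone, so the count supports nothing beyond their values. The sum of all 30 genes ranged from 7.74 to 15.8 normalised reads in cortex, 2018 to 2638 in midbrain and 13.3 to 45.7 in cerebellum. Hoxb8 (chromosome 11, 96281905 to 96285315, plus strand) was listed at 0 in 5 cortex libraries and at 0.866 in cortex 2, against 218 to 575 (median 389) in midbrain, with a fitted difference of 8.42 (SE 0.21, limma adjusted p = 2.41e-11). Hoxb5 had 320.4 to 420.1 (median 337) in midbrain and at most 1.18 in cortex, and Hoxa5 had 278 to 374 (median 290.4) and at most 1.68. Hoxd3 was listed at 0 in all 6 cortex libraries and at 63.6 to 110.5 (median 93.2) in midbrain. For genes at or near 0 in cortex a log2 difference depends on the pseudocount, so the values carry the comparison. Also among the 15 largest upward differences were Hoxb3, Hoxb6, Hoxb2 and Hoxc4, with midbrain medians of 177, 155, 90.7 and 114. The Hox genes are not active in the midbrain proper during development, as background, and whether the libraries labelled midbrain hold hindbrain tissue was not tested.

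Transcription factors of the midbrain and neighbouring brainstem were higher with few exceptions. Of 35 listed, 30 were tested, 27 were higher, 2 lower and 1 not called, with a median of 3.29. Members near 0 in cortex passed the filter through midbrain alone here as well. En1, the engrailed factor of the midbrain-hindbrain boundary, ranged from 0 to 4.45 (median 1.72) in cortex and from 109 to 213 (median 148) in midbrain (5.85 (SE 0.31, limma adjusted p = 2.52e-08)). Pax7, a paired-box factor of the dorsal midbrain, ranged from 0 to 0.877 (median 0) and 24.7 to 76.9 (median 48) respectively (5.42 (SE 0.35, limma adjusted p = 4.91e-08)). Both were thus at or near 0 in every cortex library. Gata3 (6.51 (SE 0.27)), a factor of inhibitory and serotonergic precursors, and Pou4f1 (6.17 (SE 0.30)), a factor of the habenula and red nucleus, were among the 15 largest. Lbx1, a factor of dorsal hindbrain and spinal neurons, had a midbrain median of 119 and a cerebellum median of 296 (6.22 (SE 0.28)). Irx2 (5.74 (SE 0.21)) and Irx3 (4.76 (SE 0.21)), Iroquois factors that pattern the caudal brain, led a list of 11 Iroquois and Zic genes of which 8 were higher and 1 lower. In that list, too, members low in cortex could pass the filter through midbrain alone. The 2 lower members of the midbrain list were Isl1, a LIM factor that striatal neurons also make (-1.63 (SE 0.15, limma adjusted p = 3.3e-06)), and Meis2, a homeodomain factor of striatal precursors (-1.25 (SE 0.05, limma adjusted p = 1.1e-09)).

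Most listed genes of the monoamine neurons were higher in midbrain. Members near 0 in cortex, such as Slc6a4, Fev and Slc6a2, passed the filter through midbrain alone, so the counts and medians of these lists are a description. Of 18 dopamine neuron genes tested 15 were higher and 2 lower (median 2.09). Slc6a3, the dopamine transporter, ranged from 3.31 to 14.6 (median 9.78) in cortex and from 428 to 768 (median 486) in midbrain (5.72 (SE 0.22, limma adjusted p = 1.18e-08)). Th, the rate-limiting enzyme of catecholamine synthesis, ranged from 124 to 296 (median 148) and 512 to 755 (median 632) (1.84 (SE 0.20, limma adjusted p = 0.00026)). Every midbrain library lay above the cortex range for both genes. In cKO mice the difference of Th was 0.50 and not called (adjusted p = 0.434), while that of Slc6a3 was 4.17. The genotype test did not call Th. It did call other members of the dopamine list, each with a smaller regional difference in cKO mice. Of 12 serotonin neuron genes 9 were higher and 2 lower (median 2.12). Slc6a4 (chromosome 11, 76998603 to 77032340, plus strand), the serotonin transporter, ranged from 0.869 to 3.33 (median 2.6) in cortex and from 345 to 628 (median 469) in midbrain (7.11 (SE 0.17, limma adjusted p = 2.04e-11)). Tph2, which makes serotonin in the brain, differed by 5.02 (SE 0.23, limma adjusted p = 3.51e-07), and Fev, the factor that specifies serotonin neurons, by 5.14 (SE 0.28, limma adjusted p = 1.27e-08). Noradrenaline neurons are defined by the transporter Slc6a2 (6.17 (SE 0.35)) and the enzyme Dbh (3.59 (SE 0.15)), and 5 of 6 genes of that list were higher. The remaining member, Gal, a neuropeptide gene, was not called. Receptors for dopamine, serotonin and acetylcholine, taken as 1 list, went both ways, with 11 higher and 12 lower of 30. Among its acetylcholine receptors the nicotinic subunit Chrna6 was at 4.93 (SE 0.39) and the muscarinic receptor Chrm4 at -1.38 (SE 0.06).

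Cholinergic genes split. Chat, which makes acetylcholine, ranged from 192 to 335 (median 241) in cortex and from 138 to 252 (median 161) in midbrain, lower by -0.55 (SE 0.09, limma adjusted p = 0.000333) with overlapping libraries, and in cKO mice its difference was -0.03 (adjusted p = 0.947). The genotype test did not call Chat. Slc18a3, the vesicular acetylcholine transporter, was higher by 0.49 (SE 0.10, limma adjusted p = 0.00117). Its gene lies inside the first intron of Chat, and the library kit does not mark strand. Prph, the intermediate filament of peripheral and motor axons, was higher by 4.27 (SE 0.15, limma adjusted p = 3e-10), and Calca, a peptide of motor and parabrachial neurons, by 2.93 (SE 0.18, limma adjusted p = 3.5e-08). Of 8 glycine transport and receptor genes tested 5 were higher, 1 lower and 2 not called, with a median of 0.42. Over all genes tested 17.6% were higher and 31.8% lower. The lower member was Gldc (-0.57 (SE 0.08, limma adjusted p = 0.000115)). The largest difference was that of Slc6a5, the transporter of glycinergic terminals, which passed the filter through midbrain alone. It was at most 1.2 in cortex and 155 to 737 (median 199) in midbrain (7.53 (SE 0.34, limma adjusted p = 1.27e-08)), and midbrain 1 stood at 737 with the others at 155 to 330. Glra1, the adult glycine receptor subunit, differed by 4.61 (SE 0.22, limma adjusted p = 9.57e-08).

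Hippocampal genes were also higher in the libraries labelled midbrain. Of 14 tested 9 were higher, 1 lower and 4 not called, with a median of 1.41. Members low in cortex, such as Iyd (mean 5.02 in cortex and 21.3 in midbrain), passed the filter through midbrain alone. The count and median of this list are therefore a description. C1ql2 (chromosome 1, 120340582 to 120343174, plus strand), a secreted protein of dentate granule cells, ranged from 25 to 166 (median 92.8) in cortex and from 836 to 1401 (median 1074) in midbrain (3.62 (SE 0.31, limma adjusted p = 0.000219)). Prox1, the homeodomain factor of dentate granule cells, ranged from 308 to 524 (median 379) and 913 to 1508 (median 1109) (1.51 (SE 0.07, limma adjusted p = 7.67e-09)). The groups did not overlap for either gene. Dsp (3.58 (SE 0.22)), a desmosomal protein made in the dentate gyrus, and Lct (2.65 (SE 0.13)), a lactase gene that marks dentate cells, followed. The lower member was Wfs1 (-0.70 (SE 0.06)), an endoplasmic reticulum protein of CA1 and of upper cortical layers. The region is called by its label here, and whether these libraries hold hippocampal tissue was not tested.

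Thalamic and habenular genes were higher in 15 of 20 cases and lower in 1, with a median of 1.07. As in the hippocampal list, members low in cortex could pass the filter through midbrain alone, so these values are a description. Tcf7l2, a Wnt effector of thalamic neurons that oligodendrocyte precursors also make, ranged from 152 to 491 (median 199.8) in cortex and from 909 to 1462 (median 1067) in midbrain (2.28 (SE 0.22, limma adjusted p = 0.000316)). Shox2, a factor of thalamic neurons, was at 67.1 in cortex 2 and at 0 to 3.29 in the other cortex libraries, against 373 to 644 (median 436) in midbrain (6.67 (SE 0.81, limma adjusted p = 0.00131)). Lef1, another Wnt effector of the thalamus, differed by 1.21 (SE 0.10, limma adjusted p = 6.92e-07).

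Hypothalamic peptides varied between libraries within each region. Hcrt, which encodes orexin, ranged from 277 to 478 (median 342) in midbrain, and in cortex it was at 218 in library 2 and at 2.21 to 10.3 in the others (5.20 (SE 0.95, limma adjusted p = 0.00715)). Pmch, which encodes melanin-concentrating hormone, ranged from 733 to 995 (median 829.6) in midbrain, and in cortex it was at 419 in library 2 and at 5.56 to 21.6 in the others (5.36 (SE 0.94, limma adjusted p = 0.00632)). Cortex 2 was thus far above its group for both peptides, which are made mainly in the lateral hypothalamus. Avp, the vasopressin gene, ranged from 5.84 to 4680.1 (median 114) in cortex, highest in cortex 4, and from 37 to 3965 (median 553) in midbrain, highest in midbrain 3. Oxt, the oxytocin gene, ranged from 5.01 to 1423 (median 207) and 8.58 to 998 (median 295), with the same libraries highest. Neither was called (Avp 1.65, limma adjusted p = 0.567, and Oxt 0.11, adjusted p = 0.968). In all, 3 hypothalamic genes of 18 tested were higher and 4 lower, and without animals 2 and 4 the counts were 10 and 4. Without those 2 animals the differences of Hcrt and Pmch were 6.45 and 6.55, and in the labelled males alone neither was called (limma adjusted p = 0.0776 and 0.0725). Members low in one region could pass the filter through the other alone, so the list counts are a description.

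Choroid plexus and ependymal genes were mostly higher in midbrain, and cerebellar genes went both ways. Members low in cortex could pass the filter through midbrain alone, so the counts and medians of both lists are a description. Of 16 choroid plexus and ependymal genes 15 were higher and none lower (median 1.57). Ttr, the thyroid hormone carrier secreted by the choroid plexus, was at 7156 in cortex 3 and at 142 to 466 in the other cortex libraries, against 14940.0 to 33115 (median 20191) in midbrain (5.78 (SE 0.83, limma adjusted p = 0.00287)). Of 16 cerebellar genes 11 were higher and 3 lower (median 0.78), and without animals 2 and 4 the counts were 8 and 3. Among the lower members was Calb1 (-0.33 (SE 0.05, limma adjusted p = 5.87e-05)), which is also in the upper-layer list. The summed values of the cerebellar list were lower in midbrain (16967 to 21891) than in cortex (22292 to 31675). Cbln3, a secreted synapse organiser of granule cells, ranged from 14.5 to 71.3 (median 44.5) in cortex, while in midbrain library 6 stood at 1590 and the others at 103 to 620 (3.03 (SE 0.43, limma adjusted p = 0.002)). Its median in the cerebellum libraries was 30171. Fat2, a cadherin of granule cells, was at 830 in midbrain 6 and at 86.2 to 391 in the others (2.90 (SE 0.47, limma adjusted p = 0.00353)), and it was not called without animals 2 and 4 (adjusted p = 0.0666). The part of choroid plexus or cerebellar tissue in other differences was not tested.

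Myelin genes were higher in midbrain as a whole. All 24 genes of the list were called higher, 7 of them by at least a fold of 2, with a median of 0.94. Mbp, a major protein of compact myelin, ranged from 58504 to 124910.0 (median 90556) in cortex and from 119220.0 to 231360.0 (median 195210.0) in midbrain (0.98 (SE 0.07, limma adjusted p = 4.81e-07)). The ranges met, yet each animal's midbrain lay above its own cortex. Klk6, a protease of oligodendrocytes, had the largest difference of the list, from 63 to 140.4 (median 113) in cortex to 609 to 855 (median 696) in midbrain (2.69 (SE 0.15, limma adjusted p = 6.93e-07)). Gjb1, the connexin of myelinating cells, followed with 1.40 (SE 0.06, limma adjusted p = 1.22e-09). Oligodendrocyte precursor genes showed less, with 8 higher and 3 lower of 15. The lineage factor Olig2 was higher by 0.52 (SE 0.05, limma adjusted p = 3.01e-06), and the growth factor receptor Pdgfra had a difference of -0.05 that was not called (limma adjusted p = 0.656).

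Astrocyte genes differed by region rather than all in one direction. Of 25 general astrocyte genes 15 were higher and 3 lower, with a median of 0.25, beside 17.6% higher and 31.8% lower of all genes tested. The glutamate transporters Slc1a2 (-0.43 (SE 0.11, limma adjusted p = 0.012)) and Slc1a3 (-0.41 (SE 0.09, limma adjusted p = 0.00493)) were lower in midbrain, while Aqp4, the water channel of astrocyte endfeet (0.82 (SE 0.13, limma adjusted p = 0.00191)), and S100b, a calcium-binding protein (0.98 (SE 0.09, limma adjusted p = 1.44e-05)), were higher. Without the pairing Aqp4 (limma adjusted p = 0.109) and Slc1a2 (0.0606) were not called. Gfap (chromosome 11, 102887336 to 102900912, minus strand), the astrocyte intermediate filament, ranged from 2631 to 6348 (median 4714) in cortex and from 9068 to 11059 (median 10137) in midbrain (1.21 (SE 0.13, limma adjusted p = 0.00031)). Agt, the angiotensin precursor that astrocytes of the brainstem and diencephalon make, ranged from 229.8 to 1056 (median 628) and 2288 to 4101 (median 2672) (2.22 (SE 0.32, limma adjusted p = 0.0029)). Neither gene's groups overlapped. Slc6a11, the astrocytic GABA transporter, was higher by 0.90 (SE 0.14, limma adjusted p = 0.00212), and Slc6a9, the astrocytic glycine transporter, by 1.17 (SE 0.07, limma adjusted p = 2.06e-07). On the cortical side stood Chrdl1, a secreted BMP antagonist that matures synapses (-1.24 (SE 0.14, limma adjusted p = 7.12e-05)), and Mfge8, a bridging protein for engulfment (-0.52 (SE 0.05, limma adjusted p = 2.09e-06)). In cKO mice, in which Cre is driven by a Gfap promoter, the difference of Gfap was 0.20 and not called (adjusted p = 0.418). The genotype test did not call Gfap, so no difference between the genotypes is claimed for it.

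Microglial genes were lower in midbrain in 17 of 18 cases, with none higher and a median of -0.33. With library totals made equal 11 were lower and none higher. P2ry12, the nucleotide receptor of resting microglia, ranged from 481 to 817 (median 654) in cortex and from 397 to 647 (median 444) in midbrain (-0.47 (SE 0.06, limma adjusted p = 1.87e-05)), and Fcrls, an Fc receptor-like marker, differed by -0.48 (SE 0.05, limma adjusted p = 9.08e-06). Vessel genes showed little difference, with 2 higher and 1 lower of 18 endothelial genes and 1 higher and 3 lower of 12 pericyte and smooth muscle genes. With equal totals those counts were 3 and 0, and 3 and 0. Slc2a1, the glucose transporter of brain endothelium, was higher by 0.26 (SE 0.04, limma adjusted p = 0.000277), a call that was lost without the pairing (limma adjusted p = 0.0768).

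General neuronal genes were called about as often as all genes tested (49.4%). Of 18 pan-neuronal genes 7 were lower and 2 higher (median -0.06), and with equal totals the direction turned, to 4 lower and 6 higher (median 0.04). Snap25, a protein of vesicle fusion, ranged from 43022 to 65107 (median 47660.0) in cortex and from 44410.0 to 52140.0 (median 48116) in midbrain, and its difference of -0.06 was not called (limma adjusted p = 0.41). Other axonal genes had larger differences. Nefh, the heavy neurofilament, ranged from 1504 to 2278 (median 1964) in cortex and from 6289.9 to 9376 (median 6889) in midbrain (1.93 (SE 0.05, limma adjusted p = 2.5e-11)). Vamp1, the vesicle protein of fast brainstem synapses, ranged from 3481 to 5452 (median 4247) and 12213 to 17511 (median 13133) (1.75 (SE 0.05, limma adjusted p = 7.21e-11)). Of the 19 neurofilament and axon genes, 12 were higher and 6 lower. Scn4b, a sodium channel subunit that striatal neurons make, was the lowest at -1.29 (SE 0.08).

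Genes of the postsynaptic density and of plasticity were lower in midbrain in 19 of 20 cases, with none higher (median -0.58). Camk2a, the kinase of long-term potentiation, ranged from 75068 to 106080.0 (median 85672) in cortex and from 55740.0 to 60605 (median 56852) in midbrain (-0.62 (SE 0.07, limma adjusted p = 9.52e-06)). Baiap2, a scaffold of dendritic spines, differed by -1.06 (SE 0.05, limma adjusted p = 4.56e-09). Ionotropic glutamate receptor genes were lower in 8 of 16 cases and higher in 3, among them the NMDA subunits Grin2b (-0.61 (SE 0.06)) and Grin2d (0.39 (SE 0.06)). With equal totals 7 of this list were lower and 6 higher, and with median-ratio scaling 8 were lower and 6 higher, so no direction is given for it. GABA-A receptor genes were lower in 8 of 15 and higher in 2, with Gabrd, the subunit of extrasynaptic receptors, at -1.16 (SE 0.06) and Gabra6, the granule cell subunit, at 2.80 (SE 0.26). Immediate early genes, which neurons switch on with activity, were lower in 12 of 20 cases and higher in 1. Beside the receptor and immediate early counts, 31.8% of all genes tested were lower and 17.6% higher. Egr3 differed by -0.99 (SE 0.07, limma adjusted p = 2.79e-07) and Arc by -0.45 (SE 0.07, limma adjusted p = 0.000324), and for Fos the difference of -0.06 was not called (limma adjusted p = 0.399). The call of Arc was lost without the pairing (adjusted p = 0.559). Animal 6 had the lowest Fos in both regions, 165 in cortex and 164 in midbrain, where the other animals had 832 to 1727 and 756 to 1644.

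Interferon-response and ribosomal protein genes gave the counterpart, lists in which few members differed in floxed mice. Of 21 interferon-response genes 2 were higher and 1 lower, and of 27 ribosomal protein genes 3 were higher and 2 lower. In cKO mice 19 of the 21 interferon-response genes were lower in midbrain and 0 higher, with a median of -0.56 against 0.05 in floxed mice. Of all genes tested 21% were lower and 10.5% higher in cKO mice. These calls set midbrain against cortex of the same cKO mice, not against floxed midbrain. For Ifi27, an interferon-response gene, the cKO means in cortex and midbrain (2563 and 1783) stood above the floxed means (728 and 845). With equal totals in floxed mice the ribosomal counts were 17 and 0, so no direction is given for them. Yy1 itself ranged from 1134 to 1428 (median 1305) in cortex and from 983 to 1370.0 (median 1114) in midbrain (-0.19 (SE 0.05, limma adjusted p = 0.00916)), with overlapping libraries. This call was lost without the pairing (limma adjusted p = 0.1), with equal totals (0.191) and with median-ratio scaling (0.0709).

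The regional differences were looked for again in cKO mice, which share no sample with the floxed ones. Of the 447 genes higher by at least a fold of 2 in floxed midbrain, 431 (96.4%) had the same sign in cKO mice and 349 (78.1%) were called the same way, where 10.5% of all genes tested were called higher. Of the 280 lower genes, 276 (98.6%) had the same sign and 231 (82.5%) were called the same way, where 21% of all genes were called lower. None of these 727 genes (4.64% of those tested) was called the opposite way. Over calls of any size the share called the same way was lower, 1398 of 2761 higher genes (50.6%) and 2690 of 4978 lower genes (54.0%), and 19 of the higher genes were called the opposite way. A fold of at least 2 with a call was seen in cKO mice for 397 higher (2.53%) and 188 lower genes (1.2%). For C1ql2 the cKO difference was 4.41, for Drd1 -1.58, for Slc17a6 2.66 and for Hoxb8 8.00. Of the 20 striatal genes the median was -1.97 in floxed and -1.27 in cKO mice. The genotype test was called for 1 of those genes, Rarb, a retinoic acid receptor, and that call was lost without the pairing (limma adjusted p = 0.263) and in 5 of 11 fits without 1 animal (0.0541 to 0.0742).

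**Figure D3:**
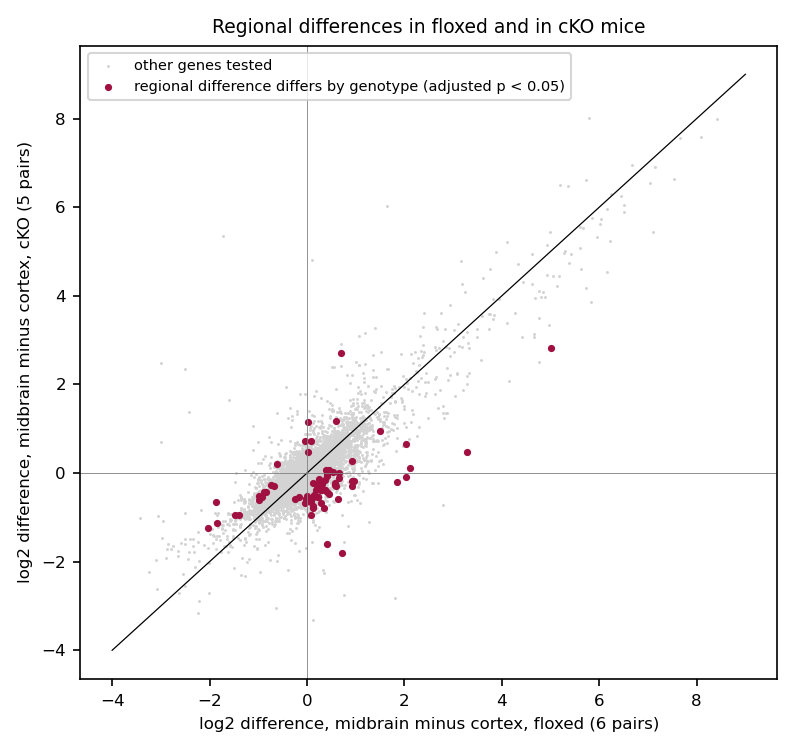
Log2 difference, midbrain minus cortex, in 6 floxed pairs (horizontal) and 5 cKO pairs (vertical) for the 15674 genes tested. The diagonal marks equal differences, and the 74 red points are genes whose regional difference differed between the genotypes at an adjusted p under 0.05.

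The test of whether the regional difference itself differs by genotype called 74 genes (0.472%), 19 with a higher and 55 with a lower midbrain-minus-cortex difference in cKO mice. Without the pairing it called 4, all lower, and leaving out 1 animal gave 3 to 48 higher and 28 to 61 lower. The class I histocompatibility genes H2-K1 and H2-D1 had the lowest p-values. H2-K1 differed between the regions by 0.12 in floxed and -0.54 in cKO mice, a change of -0.66 (SE 0.06, limma adjusted p = 0.000237, and 0.936 without the pairing). For H2-D1 the values were 0.37 and -0.38, a change of -0.75 (SE 0.08, limma adjusted p = 0.000517, and 0.836 without the pairing). In cortex and midbrain, mean H2-K1 was 991 and 1068 in floxed and 3839 and 2618 in cKO mice. Mean H2-D1 was 1485 and 1914 in floxed and 4683 and 3494 in cKO mice. Both genes thus stood higher in cKO mice in both regions, a difference in level that was not tested here. The 2 genes resemble each other, and how their reads were divided is uncertain. Apod, a lipid carrier of oligodendrocytes, went from 0.93 to 0.27, and Ifi27, an interferon-response gene, from 0.22 to -0.53. In cortex and midbrain, mean Apod was 3090 and 5902 in floxed and 4975 and 5939 in cKO mice. Mean Ifi27 was 728 and 845 in floxed and 2563 and 1783 in cKO mice. The phosphatase gene Ppm1j, with a floxed midbrain median of 34.5, went from 0.72 to -1.79. In 4 of the 10 cKO libraries, from 2 of the 5 pairs, Xist stood at 9515 to 10914, so genotype and sex by these transcripts were partly joined, and the part of sex was not tested.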

How the data were processed

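Libraries came from a kit that leaves strand unmarked, per the labels' protocols. STAR, Salmon, DESeq2 and mm10 are named in the submitters' processing notes, without version or order. The deposited table is named for raw counts, but the values the authors deposited are a normalised signal. Library totals were nearly equal (27.9 to 28.7 M in floxed cortex, 26.0 to 26.8 M in floxed midbrain), and of 75751 low values 87.5% lay within 0.1 of a whole multiple of the value of 1 read. Whole reads were therefore not recovered, and no count model was used, although the planned design allowed for one. Shallower libraries have a larger error for low genes. Of 24972 entries, 26 with names turned into dates were dropped, and they held at most 0.351% of any library. The closest 2 libraries correlated at 0.995 and were not identical.

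Values were tested as log2(value + 1) with limma 3.58.1 in R 4.3.3, with trend and robust variance and the animal as a block. A gene was tested if at least 6 of the 12 libraries reached a value of 10. Calls were made at an adjusted p (Benjamini-Hochberg) below 0.05. The genotype difference was tested on the 11 within-animal differences. The pseudocount understates the change of low genes. Simulated data with known changes were used to check the fits. Deviations from the group means correlated between same-numbered libraries (0.174 to 0.536 in floxed, 0.174 to 0.480 in cKO pairs, own number highest in 4 of 6 and 4 of 5), and the numbers were taken as animals.

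Genes were named by rule: the 15 largest differences each way among called genes with non-overlapping libraries and a mean of 50 or more in the higher region, a set of anchor genes, up to 3 members each way per list, and the 5 lowest p-values of the genotype test. Other members were named to account for a list, and some genes that the rule names are not reported here. The libraries, the 38 lists and the rule were chosen with earlier results of these data known. Gene positions are from GENCODE vM21 (GRCm38), of which 24420 table names (97.9%) matched 1 gene. Alternatives changed pseudocount, filter, scaling, block, weights, covariates and libraries, 1 at a time, except that floxed midbrain 7 was added without the block and trend and robust variance were dropped together. The 2 libraries with conflicting labels were left out. Summaries and figures were made in Python 3.11.15 with pandas 2.3.3, numpy 2.4.6 and matplotlib 3.10.9.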

Additional observations from a re-analysis of the deposited data

Results flagged for a closer look

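Within each group of 6 libraries, a library was singled out where its gap to the nearest other library exceeded Dixon's 95% limit for 6 values (0.625 of the range). Chance does this in about 1 of 20 groups, and the values of 1 library are not independent between genes.

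Cortex 2 was high for diencephalic genes. It had 218.4 normalised reads of Hcrt (others at most 10.3), 418.9 of Pmch (others at most 21.6), 67.1 of Shox2 (others at most 3.29), 491.4 of Tcf7l2 (next 250.6) and 1878 of Tshz2 (next 1099). It was also highest for Irx3 at 20.62 (next 10.36) and for Gjb1 at 569.2 (next 437.8). Cortex 3 had 7156 of Ttr (next 466.1), and cortex 4 had 4680 of Avp (next 1142).

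Midbrain 1 was highest for Slc6a5 at 737.3 (next 329.6), Slc17a6 at 4023 (next 3051), Shox2 at 643.7 (next 468.3), Tcf7l2 at 1462 (next 1106), Irx3 at 322.3 (next 262.1) and Slc6a9 at 4800 (next 3533). The same library was highest for Slc1a2 at 59000, Slc1a3 at 14170, Pdgfra at 2017, P2ry12 at 647.1, Scn4b at 6303 and Sp8 at 94.41, and lowest for Slc17a7 at 20840 (next 29540). Midbrain 2 was highest for Hoxa5 at 373.8 and Hoxb5 at 420.1, and lowest for Gpr6 at 48.75 and Slc17a8 at 74.97. Midbrain 3 was highest for Avp at 3965. Midbrain 5 was highest for Camk2a at 60600 and lowest for Grin2d at 1062. Midbrain 6 was highest for Cbln3 at 1589 (next 620.4).

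Striatal genes separated 2 cortex libraries. Cortex 6 was lowest for Drd1 at 1322 (next 1693) and Drd2 at 1643 (next 2321). Cortex 5 was highest for Ppp1r1b at 31340 (next 24930), Gpr6 at 1112 (next 801.3) and Cd4 at 879.8 (next 603.3), and also for Sst at 8494 and Gabrd at 2953. Cortex 6 was highest for Ifi27 at 1043 (next 700.8) and H2-D1 at 2015 (next 1453).

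The regional difference differed between the genotypes for 7 of the genes named. The change from floxed to cKO mice was -0.6556 for H2-K1 (SE 0.06, limma adjusted p = 0.000237), -0.7476 for H2-D1 (SE 0.08, adjusted p = 0.000517), -0.6581 for Apod (SE 0.07, adjusted p = 0.000517), -2.517 for Ppm1j (SE 0.30, adjusted p = 0.00107) and -0.7536 for Ifi27 (SE 0.09, adjusted p = 0.0012). For Rarb it was 0.7925 (SE 0.15, adjusted p = 0.0304) and for Tph2 -2.201 (SE 0.42, adjusted p = 0.0454). Of these 7, Ppm1j and Tph2 (limma adjusted p = 0.0424) kept the call without the pairing, and H2-K1, H2-D1, Apod, Ifi27 and Rarb did not. The call of Tph2 was lost in 9 of 11 fits without 1 animal (adjusted p = 0.0503 to 0.0991).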

How the results depend on the processing

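With the replicate block, 2761 genes were higher and 4978 lower in floxed midbrain, and with no replicate block 1910 and 3604. With library totals made equal the counts were 4472 and 2994. Genes at a fold of 2 or more numbered 447 and 280, against 687 higher with no filter, 164 higher and 146 lower with a mean of 100 or more, and 183 lower with a pseudocount of 10. Leaving out 1 animal gave 2375 to 2784 higher and 4303 to 4974 lower, and 426 to 484 and 246 to 312 at a fold of 2. Without animals 2 and 4, an alternative added after seeing the data, the counts were 2402 and 4060. In cKO mice no replicate block gave 1079 higher and 1654 lower against 1639 and 3285, a pseudocount of 10 gave 114 lower at a fold of 2, and leaving out 1 animal gave 1266 to 1642 higher and 2409 to 3038 lower. The genotype difference, 19 and 55 genes, became 0 and 4 with no replicate block, and leaving out 1 animal gave 3 to 48 and 28 to 61. The cause of these shifts was not tested.

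Among named genes, uncalled ones changed sign. Fos was 0.04508 with equal totals and 0.007746 with median-ratio scaling, Snap25 0.04613 and 0.008752, and Pdgfra 0.05169 and 0.01434. Without animals 2 and 4 Pdgfra was 0.04917 and Neurod6 -0.1333. Leaving out 1 animal gave -0.03951 to 0.2127 for Neurod6, -1.34 to 1.461 for Oxt and -0.1537 to 0.003488 for Pdgfra. Oxt was -0.01416 with midbrain 7 and no block, -0.3645 with library weights and -0.3611 in labelled males alone. Named genes lost a call in 48 fits and gained one in 13. No alternative reversed a called gene among those named.

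Depth limits low genes most. Zeros in cortex are values in the table and no proof of absence. With 6 pairs, 1 library can set the size of a peptide or choroid plexus difference. Borders of dissection were not given in the sources used here.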

Other observations

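The 2 libraries with a title that points to cortex but a tissue entry of midbrain, 1 floxed and 1 cKO, were in no comparison. The floxed one had 407 normalised reads of Slc17a6, 1670 of Drd1 and 0 of Hoxb8. The cKO one had 374 of Slc17a6, 1243 of Drd1 and 0 of Hoxb8. Slc6a4 stood at 5.33 and 1.81 in them, and Ttr at 2253 and 97.2. Floxed midbrain 7, which had no cortex partner, had 2687 of Slc17a6, 263 of Drd1, 330 of Hoxb8, 303 of Slc6a4 and 14402 of Ttr.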
